A study of Mus musculus with 12 samples.

Results

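RNA of mouse primary hepatocytes that lack the bile acid receptor Fxr was compared after 24 h with FAC and after 24 h with AC. The comparison took every library of Fxr-/- cells, called KO here: 6 of the 12 libraries of the series, 3 with AC (KO AC 1, 2 and 3) and 3 with FAC (KO FAC 4, 5 and 6). Libraries of wild-type (WT) cells numbered 6, again 3 with each agent, and serve here only to ask whether the response to FAC differed between genotypes. All groups were liver-derived hepatocytes of the strain C57BL/6, kept at 37 °C in DMEM with 10% foetal bovine serum, and both agents were given at 100 µM. The labels write FAC and AC only as abbreviations, while the series title speaks of iron overload. They do not say how the Fxr allele was made, how old the mice were, or whether each library stands for an animal, a culture or an extraction of its own, and p-values therefore describe only the spread between these samples. KO libraries held 16464494 to 18335700 estimated reads, and 14243 to 14481 genes had at least 1 read.

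Fxr, encoded by Nr1h4, is a nuclear receptor that bile acids activate and that controls bile acid synthesis and transport in liver. Hepatocytes take up iron through the transferrin receptor and metal transporters, store it in ferritin and release it through ferroportin, and iron regulatory proteins tie the transferrin receptor mRNA and ferritin translation to the iron level of the cell. They also secrete hepcidin, the hormone that removes ferroportin from cell surfaces, and its gene is driven by BMP ligands through SMAD proteins. Excess iron promotes oxidation of lipids and proteins, which cells meet with glutathione, haem oxygenase, metallothioneins and the stress pathways that halt translation or expand the chaperones of the endoplasmic reticulum (ER).

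The gene groups that follow include several whose promoters carry known response elements. The 250 bases before the start of a gene were taken from RefSeq (GRCm38.p6) for 9853 of the tested genes and searched on both strands for elements spelled out below. Matches describe these letters only and are not evidence of binding. The interferon-stimulated response element, searched as GAAA and GAAA 2 bases apart, was found in 2.56% of all these promoters and in 12 of 24 (50.0%) promoters of interferon-stimulated genes, among them Ifit1 and Igtp, whose transcripts were lower with FAC. The C/EBP-ATF element, TGATGNAA, was found in 2.03% of all promoters and in 6 of 20 (30.0%) of the integrated stress response genes, among them Asns and Nupr1, which were higher. It was also searched in genes of aminoacyl-tRNA synthetases (3 of 14, 21.4%) and of serine, glycine and one-carbon enzymes (1 of 23, 4.35%). The ER stress response element, CCAAT and CCACG 9 bases apart, was found in 0.162% of all promoters and in 10 of 23 (43.5%) of the ER chaperone genes, among them Creld2 and Hsp90b1, which were also higher. The NF-kB element, GGG and TTTCC 2 bases apart, was found in 1.42% of all promoters. In the NF-kB list, which holds targets and genes of the factor itself such as Rela, it was found in 7 of 22 (31.8%). Among them was Cxcl1, which differed mainly by library. The antioxidant response element, TGACNNNGC, was found in 11.9% of all promoters. In the list of Nrf2, glutathione and antioxidant enzyme genes, which holds Nfe2l2 itself, it was found in 7 of 33 (21.2%). The promoters below are those of the named genes, each 5′ to 3′ on the strand of its gene, with the matching letters in capitals. Ifit1 lies on the plus strand (promoter chr19:34640639-34640888), Igtp on the plus strand (chr11:58199306-58199555), Asns on the minus strand (chr6:7693210-7693459) and Nupr1 on the minus strand (chr7:126625471-126625720). Creld2 lies on the plus strand (chr15:88819396-88819645), Hsp90b1 on the minus strand (chr10:86705445-86705694) and Cxcl1 on the plus strand (chr5:90890995-90891244).
Ifit1: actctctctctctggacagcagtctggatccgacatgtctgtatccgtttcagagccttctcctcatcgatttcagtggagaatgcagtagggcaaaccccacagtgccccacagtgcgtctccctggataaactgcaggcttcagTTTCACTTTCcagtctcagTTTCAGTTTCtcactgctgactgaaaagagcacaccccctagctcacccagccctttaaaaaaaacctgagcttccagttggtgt
Igtp: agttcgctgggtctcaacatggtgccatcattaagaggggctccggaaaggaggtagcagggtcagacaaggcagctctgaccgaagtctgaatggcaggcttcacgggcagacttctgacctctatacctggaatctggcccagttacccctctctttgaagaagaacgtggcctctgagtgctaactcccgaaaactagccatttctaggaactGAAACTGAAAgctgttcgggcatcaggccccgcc
Asns: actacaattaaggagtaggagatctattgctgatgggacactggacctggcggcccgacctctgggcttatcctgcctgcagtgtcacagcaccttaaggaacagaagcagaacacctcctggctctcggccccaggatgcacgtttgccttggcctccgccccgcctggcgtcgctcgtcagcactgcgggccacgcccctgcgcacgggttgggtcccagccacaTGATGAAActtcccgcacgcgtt
Nupr1: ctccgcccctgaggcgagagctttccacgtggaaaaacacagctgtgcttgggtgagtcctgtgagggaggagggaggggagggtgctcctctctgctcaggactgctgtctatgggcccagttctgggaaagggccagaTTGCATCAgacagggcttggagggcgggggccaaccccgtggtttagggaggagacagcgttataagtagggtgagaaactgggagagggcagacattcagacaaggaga
Creld2: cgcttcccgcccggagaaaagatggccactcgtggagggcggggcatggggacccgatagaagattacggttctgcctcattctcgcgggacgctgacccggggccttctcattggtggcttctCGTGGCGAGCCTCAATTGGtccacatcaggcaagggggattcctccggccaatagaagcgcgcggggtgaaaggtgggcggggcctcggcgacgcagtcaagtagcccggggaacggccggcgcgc
Hsp90b1: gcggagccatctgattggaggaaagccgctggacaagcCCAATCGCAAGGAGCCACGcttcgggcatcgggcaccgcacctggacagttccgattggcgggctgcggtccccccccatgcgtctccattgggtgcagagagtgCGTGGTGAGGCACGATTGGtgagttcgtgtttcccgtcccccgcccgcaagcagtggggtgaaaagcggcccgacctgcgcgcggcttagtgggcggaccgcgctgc
Cxcl1: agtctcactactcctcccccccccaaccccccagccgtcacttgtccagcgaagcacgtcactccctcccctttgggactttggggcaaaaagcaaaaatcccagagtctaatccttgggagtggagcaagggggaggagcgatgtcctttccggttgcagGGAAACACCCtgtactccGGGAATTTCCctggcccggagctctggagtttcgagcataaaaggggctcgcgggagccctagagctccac
In these windows the interferon element occurs at 2 places in Ifit1 and at 1 in Igtp, and the ER element at 2 places in Hsp90b1 and 1 in Creld2.

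The targeted gene was read in every KO library. Nr1h4 (gene identifier 20186, chromosome 10, 89454234 to 89533645 in GRCm38.p6) stood at 9.35, 6.97 and 7.45 CPM in the AC libraries and at 3.54, 4.45 and 4.89 CPM in the FAC libraries. CPM, a unit corrected for depth, is a gene's estimated count relative to its library's total, the totals being scaled by TMM factors. These counts cover the whole gene and cannot show which part is deleted. The remaining Nr1h4 transcript fell with FAC (log2 fold change −0.88 ± 0.16 (SE), n = 3 against 3, edgeR quasi-likelihood test with Benjamini-Hochberg adjustment, adjusted p = 0.00124), and the AC and FAC libraries did not overlap.

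Across the transcriptome FAC moved many genes by small amounts. Of 12275 genes tested, 3633 (29.6%) changed at an adjusted p under 0.05, of which 1838 (15.0%) rose and 1795 (14.6%) fell. Counts of gene groups below stand against these shares of rises and falls. The threshold of 0.05 holds for every statement below that a gene rose, fell or changed. Most shifts were modest: 2396 of the called genes changed less than 1.5-fold, 487 changed at least 2-fold (304 higher and 183 lower) and 82 at least 4-fold (51 higher and 31 lower). AC and FAC libraries did not overlap for 4762 genes (38.8%), 2421 with FAC above AC (19.7%) and 2341 with FAC below AC (19.1%), and this held for 93.4% of the called genes. No permutation test of 3 libraries against 3 can give a p below 0.1. With the 6 KO libraries alone, a first principal component with 52.2% of the variance set the AC libraries apart from the FAC libraries.

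**Figure D1:**
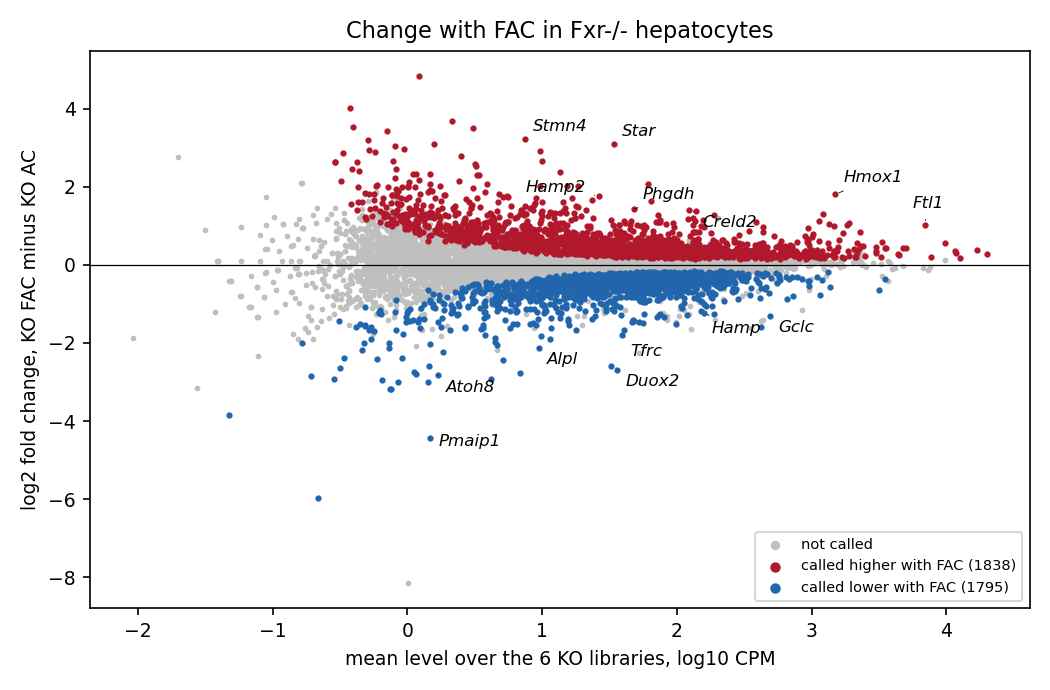
Each point is 1 tested gene, placed by its mean level over the 6 KO libraries (CPM, log10 axis) and by its log2 fold change, FAC minus AC, and genes called at an adjusted p under 0.05 are coloured. Called genes lie on both sides in nearly equal number, 1838 higher and 1795 lower, and the 1 tested gene with no read in a KO library is not drawn.

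Transcript length moved with the direction of change. Tested genes were split by length into 5 equal groups. In the shortest group (median length 1034 bases) 716 rose and 89 fell, while in the longest (median 5742 bases) 113 rose and 688 fell, with median log2 fold changes of 0.19 and −0.20. The WT libraries showed the same order, at 0.13 and −0.15. When the length trend of each library was removed, an alternative chosen after seeing the data, the 2 medians were 0.02 and 0.00 and 3026 genes were called, 1616 higher (13.2%) and 1410 lower (11.5%). The scale bears on the balance as well: on log2(TPM + 1), where the median of all genes shifted by −0.15, limma called 4670 genes and 18.5% of them were higher, against 50.6% here and 33.9% on log2(FPKM + 1). On the TPM scale 7.02% of all genes were called higher and 31.0% lower, the shares that TPM counts of gene groups stand against. Counts of many gene groups are therefore given below with and without the length trend, and the part of length in them beyond that was not tested.

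**Figure D2:**
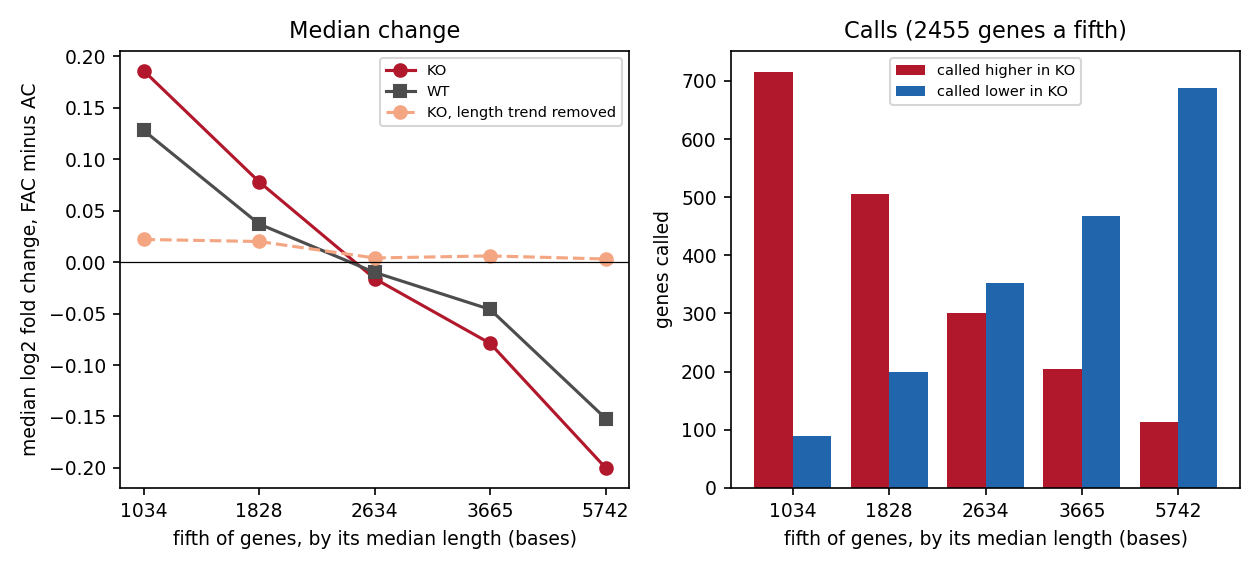
Tested genes were split into 5 equal groups by transcript length. Lines give the median log2 fold change of each group in KO, in WT, and in KO with the length trend removed. Bars give how many genes of each group were called higher or lower with FAC in KO hepatocytes, without that removal. The shortest group held 716 higher and 89 lower genes, the longest 113 and 688. After removal, not drawn as bars, the shortest held 350 and 236 and the longest 282 and 287.

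A further fact bears on several groups. KO FAC 6 stood apart in a set of genes: among 11383 genes with a mean above 1 CPM in KO libraries, 123 were more than 2-fold below all other KO libraries in KO FAC 6, against 5 to 29 in the other 5 libraries. Counts of several lists are given below with and without KO FAC 6. For many single genes only library levels are given. The second principal component, 22.8% of the variance, set KO AC 1 (−23.6) and KO FAC 6 (−17.4) against KO FAC 4 (31.8). Of the 3633 called genes, 2050 (56.4%) were called whichever of the 6 KO libraries was left out, 1027 higher and 1023 lower. The count of called genes was 2365 without KO AC 3.

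Tfrc, Slc11a2 and Steap4 of iron uptake fell with FAC, while both ferritin genes and the ferroportin gene rose. Tfrc, the transferrin receptor, fell from 67.1, 50.4 and 64.2 CPM with AC to 19.3, 20.0 and 13.1 CPM with FAC (log2 fold change −1.79 ± 0.17, adjusted p = 2.09e-05). Slc11a2, the transporter that moves ferrous iron out of endosomes, stood at 207, 195 and 212 CPM with AC and at 121, 135 and 60.4 CPM with FAC (−0.96 ± 0.22). The groups did not overlap for either gene, and KO FAC 6 was the lowest library in both. Steap4, a metalloreductase that inflammation also induces, fell from 751, 516 and 622 CPM to 218, 324 and 80.8 CPM (−1.60 ± 0.41), and without KO AC 3 its adjusted p was 0.0502. Tfr2, the second transferrin receptor, stood at 140, 149 and 160 CPM with AC and at 147, 151 and 148 CPM with FAC (−0.01 ± 0.07), and Slc39a14, the importer of iron not bound to transferrin, at 133 to 141 and 91.2 to 141 CPM (−0.15 ± 0.12). Neither passed the test. Other uptake genes were called higher: the metal importer gene Slc39a8 (0.56 ± 0.16) and the metalloreductase genes Steap1 (0.91 ± 0.23) and Steap3 (0.38 ± 0.07). The call of Slc39a8 ended on omission of KO AC 1 or of KO FAC 4.

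Both ferritin chains rose. The light chain gene Ftl1 went from 5120, 4459 and 4137 CPM to 8745, 9846 and 9377 CPM, a 2.04-fold rise, and the heavy chain gene Fth1 from 7703, 8564 and 7314 CPM to 13340, 11508 and 9944 CPM, a 1.48-fold rise (log2 fold changes 1.03 ± 0.08 and 0.56 ± 0.09). Slc40a1, which encodes ferroportin, rose from 67.1, 46.0 and 49.3 CPM to 81.0, 110 and 144 CPM (1.05 ± 0.19). FAC libraries lay above AC libraries in all 3 genes. Among the regulators of iron level, Aco1, whose product is iron regulatory protein when it lacks its iron-sulfur cluster, fell from 145 to 161 CPM to 99.1 to 123 CPM (−0.45 ± 0.08). Ireb2, the other iron regulatory protein, Fbxl5, the ligase subunit that removes it, and Ncoa4, the receptor for ferritin breakdown, did not pass the test (−0.21 ± 0.09, −0.13 ± 0.08 and 0.32 ± 0.18). Ncoa4 was spread over 221 to 416 CPM with FAC.

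Of the secreted iron and haem proteins, Cp (ceruloplasmin, which oxidises iron for export) fell from 1453 ± 84.6 to 856 ± 99.0 CPM (SD, n = 3) and Hp (haptoglobin, which binds free haemoglobin) from 1639 ± 274 to 1115 ± 103 CPM. Trf, the transferrin gene, stood at 7225 ± 337 and 8303 ± 424 CPM. It was called higher (0.20 ± 0.06, adjusted p = 0.0261), a call that ended on omission of KO AC 2, of KO AC 3, of KO FAC 5 or of KO FAC 6. Of the 27 tested genes of iron uptake, storage and export, 7 rose and 7 fell, and their median log2 fold change was −0.03 against 0.00 over all genes. That list held a small count of large changes in both directions, and 7 and 7 were also called without KO FAC 6 and with the length trend removed, against 4 and 12 on the TPM scale.

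**Figure D3:**
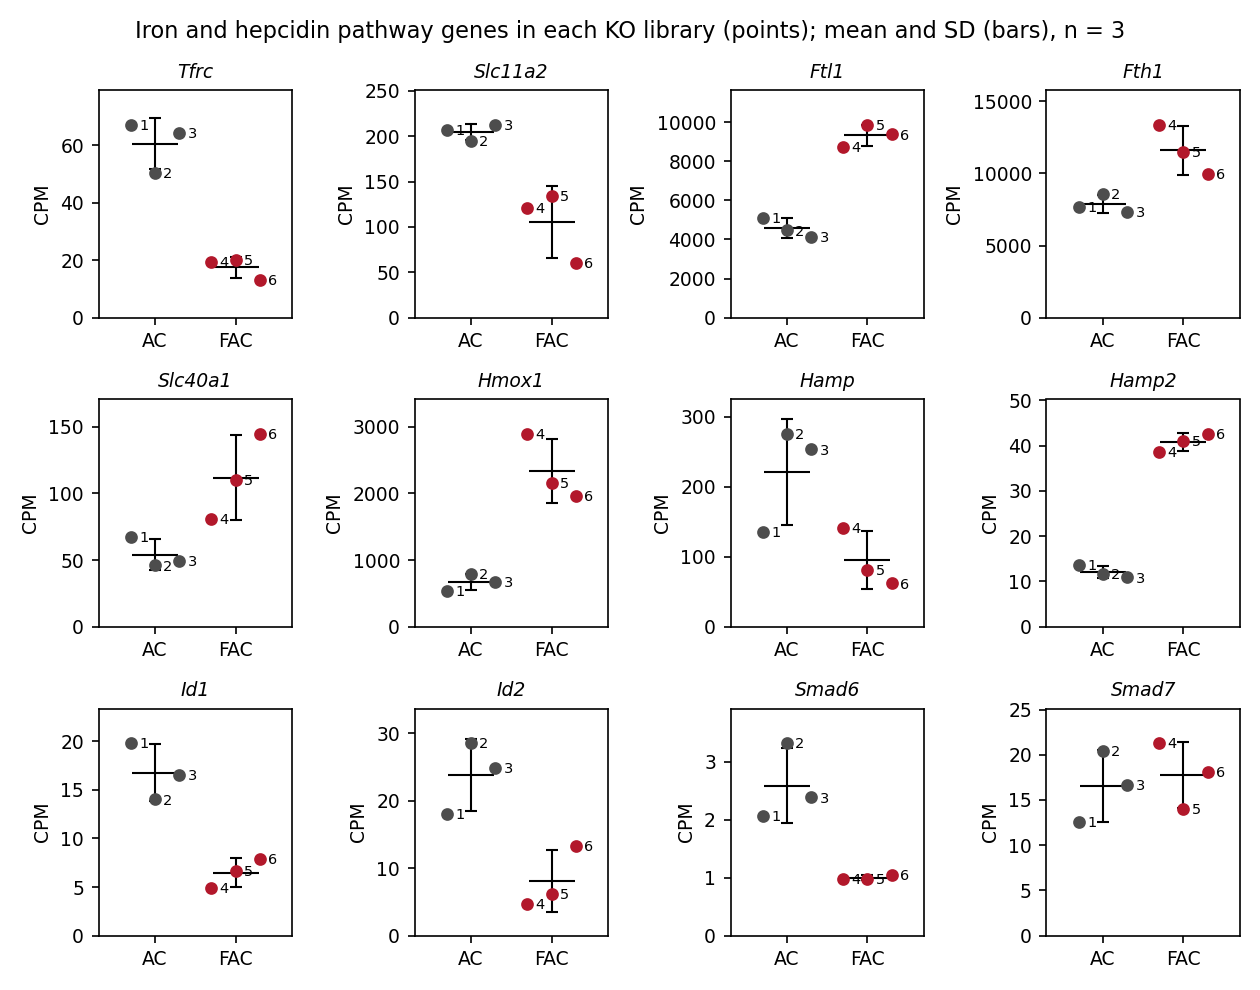
CPM of 12 genes of iron handling and hepcidin control in each KO library, AC 1 to 3 in grey and FAC 4 to 6 in red, with numbers naming the library, horizontal bars for the mean and vertical bars for the SD (n = 3). Tfrc, Slc11a2, Id1, Id2 and Smad6 are lower in every FAC library, Ftl1, Fth1, Slc40a1, Hmox1 and Hamp2 are higher in every one, and Hamp and Smad7 overlap.

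Of the 25 tested genes of hepcidin and BMP-SMAD signalling 12 fell with FAC and 2 rose, against 14.6% and 15.0% of all genes, and the hepcidin genes themselves moved apart. Hamp, which encodes hepcidin, stood at 135, 275 and 253 CPM with AC and at 141, 80.9 and 61.9 CPM with FAC. The groups overlapped, since KO FAC 4 lay above KO AC 1. Hamp was called lower (−1.22 ± 0.37, adjusted p = 0.0336), and omission of KO AC 2, of KO AC 3, of KO FAC 5 or of KO FAC 6 ended this call, with adjusted p up to 0.101. Its neighbour Hamp2, a close copy with which it may share reads, rose from 13.7, 11.7 and 10.9 CPM to 38.7, 41.1 and 42.6 CPM (1.75 ± 0.14). Split of reads between the pair is uncertain.

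Several genes that SMAD proteins control fell. Id1 fell from 19.8, 14.0 and 16.5 CPM to 4.88, 6.67 and 7.92 CPM (−1.37 ± 0.18), and Id2 from 18.1, 28.5 and 24.8 CPM to 4.70, 6.15 and 13.3 CPM (−1.55 ± 0.31). Both encode inhibitors of helix-loop-helix transcription factors, as does Id3, which fell by 0.93 ± 0.23 on the log2 scale. Atoh8, a transcription factor gene that responds to BMP and iron, fell from 2.24, 3.21 and 3.43 CPM to 0.305, 0.523 and 0.407 CPM (−2.83 ± 0.35), a fitted 7.12-fold difference at a low level. Of the inhibitory SMAD genes, Smad6 fell from 2.06 to 3.32 CPM to 0.976 to 1.05 CPM (−1.37 ± 0.28), while Smad7 stood at 12.6, 20.4 and 16.6 CPM with AC and at 21.3, 14.0 and 18.1 CPM with FAC (0.11 ± 0.17, adjusted p = 0.662). Of genes that act upstream of the SMAD proteins, Bmpr1a, a BMP receptor, was called lower (−0.19 ± 0.06), and its call ended in 4 of 6 fits that left out 1 library. Bmp6, the BMP ligand most tied to iron, Hfe, a partner of the transferrin receptors, and Tmprss6, the protease that restrains the pathway, did not pass the test (−0.03 ± 0.11, −0.01 ± 0.09 and −0.08 ± 0.09). The median of the list was −0.28 (−0.06 with the length trend removed, when 3 rose and 8 fell).

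Of 19 tested genes of haem synthesis and breakdown 6 rose and none fell, against 15.0% and 14.6% of all genes. Hmox1, haem oxygenase, went from 542, 797 and 672 CPM to 2888, 2151 and 1967 CPM (1.80 ± 0.18, adjusted p = 6.13e-05), with a wide gap between the groups. Blvra, the biliverdin reductase that takes the next step, was called higher (0.40 ± 0.12), but not in 3 of 6 fits that left out 1 library, with adjusted p up to 0.0752. Slc48a1, which carries haem out of lysosomes, rose by 0.34 ± 0.06. Alas1, the first enzyme of haem synthesis in liver, rose from 146 to 190 CPM to 216 to 237 CPM (0.40 ± 0.09). The median of the list was 0.20, and removal of the length trend again gave 6 and 0. On the TPM scale 2 rose and 1 fell, with a median 0.17 above that of all genes. Iron-sulfur cluster assembly had 7 higher and 1 lower of 20 tested genes, but the count fell to 3 and 2 with the length trend removed and its median of 0.18 was −0.01 on the TPM scale, 0.14 above that of all genes there. Fdxr, ferredoxin reductase, rose in that list from 4.48 to 4.88 CPM to 7.51 to 7.91 CPM (0.71 ± 0.14).

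Genes under the hypoxia-inducible factors (HIF), whose prolyl hydroxylases use iron, were counted as 8 higher and 0 lower of 24 tested. The shares of all genes were 15.0% and 14.6%. The median of the list was 0.13 (0.00 without KO AC 1). On the TPM scale 2 rose and 5 fell, and the median of −0.06 lay 0.09 above that of all genes. Ankrd37 rose from 18.9, 19.9 and 17.0 CPM to 25.2, 29.0 and 43.3 CPM (0.81 ± 0.19). Smaller rises were seen for Pfkfb4, a regulator of glycolysis (0.61 ± 0.21), Higd1a, a mitochondrial protein of the inner membrane (0.45 ± 0.08), and Ero1l, an ER oxidase (0.42 ± 0.12). The call of Pfkfb4 was lost when any library but KO AC 3 was left out, and that of Ero1l without KO FAC 5.

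Among genes with a mean FPKM of at least 5 and no overlap between the groups, the largest rises by fold were in genes at a low level with AC. Star, which carries cholesterol into mitochondria for steroid synthesis, went from 5.74, 8.97 and 6.69 CPM to 72.6, 53.2 and 57.6 CPM (3.10 ± 0.21). Stmn4, a stathmin that binds tubulin, went from 1.72, 1.72 and 0.873 CPM to 11.5, 13 and 15.7 CPM (3.21 ± 0.28), and Mt3, the metallothionein best known from brain, from 0.115, 0.498 and 0.349 CPM to 2.68, 2.81 and 2.97 CPM (3.10 ± 0.42). Lce1d and Lce1g, of the late cornified envelope genes, rose by 2.93 ± 0.17 and 2.01 ± 0.17. All FAC libraries lay above all AC libraries in these genes, as the rule for naming them required.

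Others in this group were Ckb, the brain type creatine kinase (from 2.18 to 3.54 CPM to 16.1 to 18.4 CPM, 2.66 ± 0.20), the small heat shock protein gene Cryab (3.55 to 5.91 and 17.6 to 28.6 CPM, 2.39 ± 0.23) and Csrp3, a muscle LIM protein gene (2.29 ± 0.39). Emp1, an epithelial membrane protein gene, rose from 24.8, 23.4 and 23.2 CPM to 88.4, 93.1 and 116 CPM (2.06 ± 0.11). Smyd4, Npy (neuropeptide Y) and the histone gene H2al1a rose by 2.03 ± 0.13, 2.01 ± 0.14 and 1.89 ± 0.37 on the log2 scale. Npy went from 3.49 to 4.02 CPM to 14.0 to 16.3 CPM.

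Under the same limits, the largest falls by fold were led by a pair whose libraries varied widely. Duox2, a dual oxidase that makes hydrogen peroxide, stood at 28.3, 69.5 and 89.7 CPM with AC and at 21.3, 7.98 and 0 CPM with FAC (−2.68 ± 0.88, adjusted p = 0.0494). Its maturation factor Duoxa2 stood at 35.0, 66.3 and 65.6 CPM and at 18.6, 8.83 and 0.233 CPM (−2.60 ± 0.76). KO FAC 6 was the lowest library in both, and either call ended on omission of KO AC 2, of KO AC 3 or of KO FAC 5, with adjusted p up to 0.138 for Duox2 and 0.0895 for Duoxa2. Several of the smaller falls were tighter. Alpl, tissue-nonspecific alkaline phosphatase, fell from 14.1, 14.7 and 17.3 CPM to 3.72, 4.32 and 2.56 CPM (−2.12 ± 0.19). Psd3 fell from 50.9 to 71.5 CPM to 18.0 to 22.2 CPM, Endod1 from 135 to 163 CPM to 48.5 to 54.1 CPM, and Abca6, a lipid transporter of the ABC family, from 62.0 to 76.4 CPM to 24.0 to 25.6 CPM.

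St14, the protease matriptase, fell by 1.61 ± 0.28 on the log2 scale, and Ubd, a ubiquitin-like protein that cytokines induce, by 2.04 ± 0.46. Tjp3, a tight junction protein gene, fell by 1.49 ± 0.39, with KO FAC 6 lowest at 10.3 CPM, and its adjusted p was 0.0587 without KO AC 3. By the difference in CPM, the largest rises were those of the ferritin genes, Gapdh (a glycolytic enzyme, 14700 ± 338 to 19047 ± 879 CPM), Alb (albumin, 18193 ± 594 to 21975 ± 184 CPM), Mup10, Mup1, Hmox1 and Apoe. Among the largest falls were those of Tgm2 (transglutaminase, 3845 ± 65.6 to 2461 ± 247 CPM), C3 (the central complement protein, 3988 ± 526 to 3083 ± 230 CPM), Cp, Hp, Steap4, Gclc and Pklr (liver pyruvate kinase, 851 ± 135 to 467 ± 96.4 CPM). Major urinary protein genes are near copies of each other, so that the split between Mup10 and Mup1 is uncertain, and the call of Mup10 ended in 3 of 6 fits that left out 1 library. Of 18 tested genes of this family 11 rose and 0 fell, against 15.0% and 14.6% of all genes. Their transcripts are short (median 751 bases), and with the length trend removed they counted 3 and 0.

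Genes of the integrated stress response, the program that the factor ATF4 drives when translation is slowed, counted 11 higher and 1 lower of 23 tested members, against 15.0% and 14.6% of all genes, with a median log2 fold change of 0.34, and 9 rose and 1 fell with the length trend removed. Asns, asparagine synthetase, rose from 89.7, 88.7 and 103 CPM to 175, 175 and 156 CPM (0.85 ± 0.08), and Nupr1, a stress-induced nuclear protein gene, from 15.4, 29.5 and 22.4 CPM to 47.1, 44.0 and 45.1 CPM (1.02 ± 0.19). These are the genes whose promoters are printed above. Cth, which makes cysteine, rose from 41.2 to 52.6 CPM to 74.9 to 99.4 CPM. Pck2, another gene with the element in its window, rose by 0.83 ± 0.12, whereas Fgf21, a hormone gene, and Atf3 carry it too and did not pass the test (0.63 ± 0.26 and −0.02 ± 0.28). Chac1, which degrades glutathione, was called higher at an adjusted p of 0.0499, a call that ended on omission of KO AC 1, of KO AC 2, of KO FAC 4 or of KO FAC 5. Gpt2, a mitochondrial transaminase gene of the list, fell from 159 to 208 CPM to 91.3 to 118 CPM (−0.87 ± 0.11). The transcript of the factor itself, Atf4, was called higher (0.28 ± 0.09), with overlapping libraries, but not in 4 of 6 fits that left out 1 library.

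All 3 enzymes of serine synthesis rose. Phgdh, its first enzyme, went from 25.5, 25.1 and 28.3 CPM to 72.1, 68.7 and 70.6 CPM (1.42 ± 0.07, adjusted p = 1.46e-07). Psat1, the second, went from 53.9, 61.4 and 65.1 CPM to 138, 120 and 121 CPM (1.07 ± 0.09), and Psph, the last, from 13.7, 15.4 and 16.3 CPM to 31.1, 29.5 and 30.2 CPM (1.0 ± 0.09). FAC libraries of each gene lay above all AC libraries, with little spread. Gnmt, which uses glycine to consume methyl groups, and Bhmt, which remakes methionine, rose by 1.19 ± 0.12 and 1.10 ± 0.15. In the list of serine, glycine and one-carbon enzymes 12 of 26 rose and 2 fell (median 0.35, and 11 and 2 with the length trend removed). Amino acid transporters counted 5 higher and 3 lower of 24 (median 0.02), against 15.0% and 14.6% of all genes. Their transcripts are long (median 3494 bases). With the length trend removed they counted 8 and 2 (median 0.17), against 13.2% and 11.5% of all genes. Slc3a2, the shared heavy subunit of several of them, rose from 593 to 734 CPM to 975 to 1219 CPM, and Slc38a1, a glutamine carrier, was called higher (1.01 ± 0.24) with overlapping libraries.

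Of 28 tested genes of ER chaperones and the unfolded protein response 15 rose and 2 fell, against 15.0% and 14.6% of all genes. Creld2, an ER stress protein gene, went from 76.3, 65.5 and 63.2 CPM to 175, 181 and 183 CPM (1.40 ± 0.08, adjusted p = 2.6e-07), a clear gap. Hsp90b1, which encodes the chaperone GRP94, went from 778, 729 and 718 CPM to 1089, 1098 and 1191 CPM (0.60 ± 0.07). Manf, a secreted ER protein gene, rose by 0.70 ± 0.09, Sdf2l1 by 0.60 ± 0.10 and Hspa5, the chaperone BiP, by 0.37 ± 0.06. Hyou1, an exchange factor for BiP, fell from 105 to 110 CPM to 81.9 to 95.2 CPM (−0.29 ± 0.07). The median of the list was 0.26, and 15 and 1 were called with the length trend removed. On the TPM scale it counted 9 and 7, with a median 0.22 above that of all genes.

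**Figure D4:**
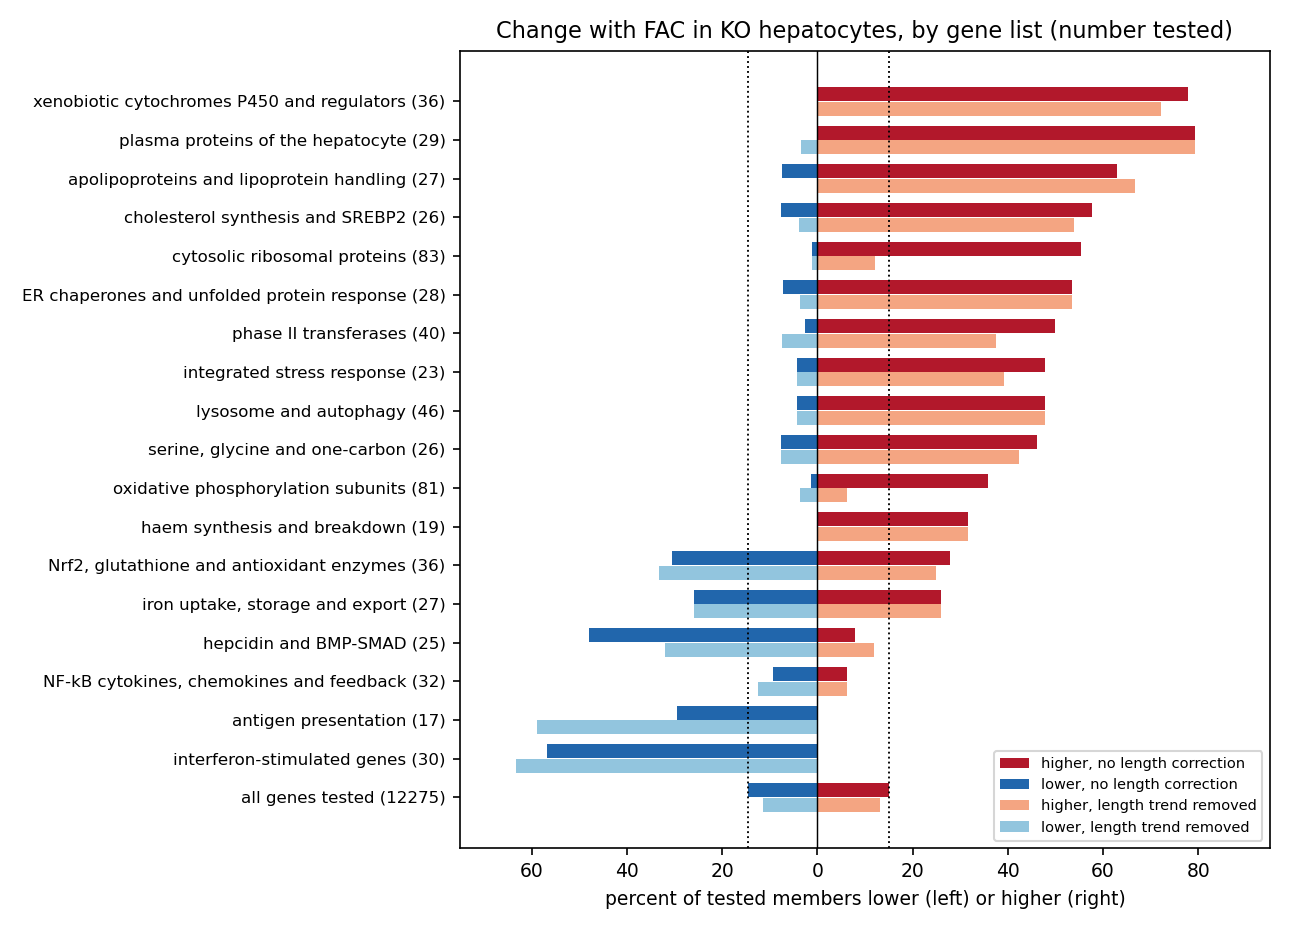
For 18 lists and for all tested genes, bars give the percent of tested members called higher (to the right) and lower (to the left) with FAC in KO hepatocytes, in dark colours without and in light colours with removal of the length trend, and dotted lines mark the percent over all genes, 15.0 and 14.6. Ribosomal and oxidative phosphorylation genes lose most of their calls after removal, while interferon-stimulated genes, with 17 of 30 lower, and cytochromes P450, with 28 of 36 higher, keep their direction on both.

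Antioxidant genes split. Gclc, the catalytic subunit of the first enzyme of glutathione synthesis, fell from 639, 709 and 756 CPM to 256, 259 and 340 CPM (−1.30 ± 0.10, adjusted p = 5.45e-06). Its partner Gclm, the modifier subunit, rose from 290, 336 and 344 CPM to 488, 444 and 386 CPM (0.44 ± 0.09). Neither gene had overlapping groups, so the 2 subunits of 1 enzyme moved in opposite directions. Nfe2l2, which encodes the regulator Nrf2, fell from 234, 249 and 209 CPM to 139, 146 and 105 CPM (−0.83 ± 0.10). Its usual targets were mixed: Nqo1 stood at 21.2 to 24.8 CPM and 22.4 to 24.5 CPM (0.06 ± 0.08), Srxn1, Txnrd1 and Gsr, which restore oxidised peroxiredoxin, thioredoxin and glutathione, fell by 0.31 ± 0.07, 0.32 ± 0.08 (adjusted p = 0.0525 without KO AC 3) and 0.43 ± 0.07 on the log2 scale, and Akr1b8 and Gsta1 rose by 0.78 ± 0.16 and 0.75 ± 0.09. Prdx6, a peroxidase that acts on phospholipids, rose from 847 to 924 CPM to 1333 to 1437 CPM. Txnip, an inhibitor of thioredoxin, fell from 179 to 211 CPM to 104 to 120 CPM. Of 36 tested genes in the Nrf2 and glutathione list, 10 rose and 11 fell.

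Metallothioneins, which bind zinc and copper and scavenge radicals, rose. Mt1 went from 1029, 1360 and 1250 CPM to 2908, 2487 and 2265 CPM (1.07 ± 0.13) and Mt2 from 685, 1032 and 917 CPM to 2198, 1732 and 1502 CPM (1.04 ± 0.18), with no overlap. Among genes of ferroptosis, the death by iron-driven lipid oxidation, changes were small. Gpx4, the peroxidase that holds it back, stood at 521 to 701 CPM with AC and at 626 to 655 CPM with FAC (0.10 ± 0.10). Acsl4, which loads membranes with oxidisable fatty acids, was called lower (−0.36 ± 0.11) and Cisd1, a mitochondrial iron-sulfur protein gene, higher (0.36 ± 0.10), and both calls were lost in 3 or more of the 6 fits that left out 1 library. The list counted 6 higher and 1 lower of 21, but 2 and 0 without KO FAC 6, 3 and 0 with the length trend removed and 0 and 8 on the TPM scale.

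Of 30 tested interferon-stimulated genes 17 fell and none rose, against 14.6% lower among all genes, with a median log2 fold change of −0.52. The count was 18 and 0 without KO FAC 6, 19 and 0 with the length trend removed and 24 and 0 on the TPM scale. Ifit1, which binds foreign RNA, stood at 19.4, 16.8 and 25.6 CPM with AC and at 5.98, 11.6 and 11.5 CPM with FAC (−1.09 ± 0.23), and Igtp, a GTPase induced by interferon gamma, at 94.6, 86.5 and 101 CPM and at 47.3, 57.3 and 53.5 CPM (−0.84 ± 0.11). Oasl2 fell from 38.5 to 56.9 CPM to 18.4 to 23.2 CPM and Ifi44 from 13.8 to 14.7 CPM to 5.12 to 8.03 CPM. Iigp1 was called lower (−1.12 ± 0.36), but not on omission of KO AC 1, of KO AC 3, of KO FAC 4 or of KO FAC 5. FAC libraries lay below AC libraries in these 5 genes, 2 of which are the ones with the printed interferon element.

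Genes of antigen presentation had 5 lower and 0 higher of 17, against 14.6% lower among all genes. With the length trend removed 10 were lower and 0 higher. Without KO FAC 6 the count was again 5 and 0, but the median moved from −0.29 to −0.11. Relative to the mean of the AC libraries, the median member stood at −0.10, −0.13 and −0.51 (log2) in KO FAC 4, 5 and 6. Psmb10, a subunit of the immunoproteasome, fell from 37.9, 36.4 and 35.7 CPM to 22.7, 22.2 and 17.8 CPM (−0.81 ± 0.09). Psmb8 of the same particle fell by 0.55 on the log2 scale, Tap1, the peptide transporter, by 0.60 ± 0.11 and the class I gene H2-Q4 by 0.54 ± 0.11. Against this direction Cxcl9, a chemokine that interferon gamma induces and a member of the NF-kB list, rose from 110, 99.6 and 87.0 CPM to 170, 181 and 180 CPM (0.84 ± 0.09).

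Many targets of NF-kB, the factor of innate immune signalling, were far lower in KO FAC 6 than in any other KO library. Ccl2, which attracts monocytes, stood at 1140, 1290 and 1078 CPM with AC and at 1219, 974 and 45.1 CPM with FAC. Nos2, the inducible nitric oxide synthase, stood at 524, 683 and 714 CPM and at 424, 287 and 6.40 CPM, and Cxcl1, which attracts neutrophils, at 392, 349 and 271 CPM and at 330, 424 and 24.3 CPM. KO FAC 6 lay far below all other libraries in these 3 genes. None passed the test, with adjusted p of 0.588, 0.292 and 0.735. In the adhesion gene Icam1 (196, 162 and 167 CPM, then 94.5, 110 and 15.6 CPM) and the feedback inhibitor Nfkbia (239, 353 and 266 CPM, then 214, 216 and 38.8 CPM) the other FAC libraries were below the AC libraries too. Of the 32 tested members, 19 were among the genes more than 2-fold below all other KO libraries in KO FAC 6. The list counted 2 higher and 3 lower, with a median of −0.66, and 2 and 9 with a median of −0.34 without KO FAC 6. Tnf, among those called lower (−1.87 ± 0.64, adjusted p = 0.0493), was not called on omission of any AC library or of KO FAC 4. Relative to the mean of the AC libraries, the median member stood at −0.39, −0.38 and −2.44 (log2) in KO FAC 4, 5 and 6, while the median interferon-stimulated gene stood at −0.76, −0.39 and −0.54.

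**Figure D5:**
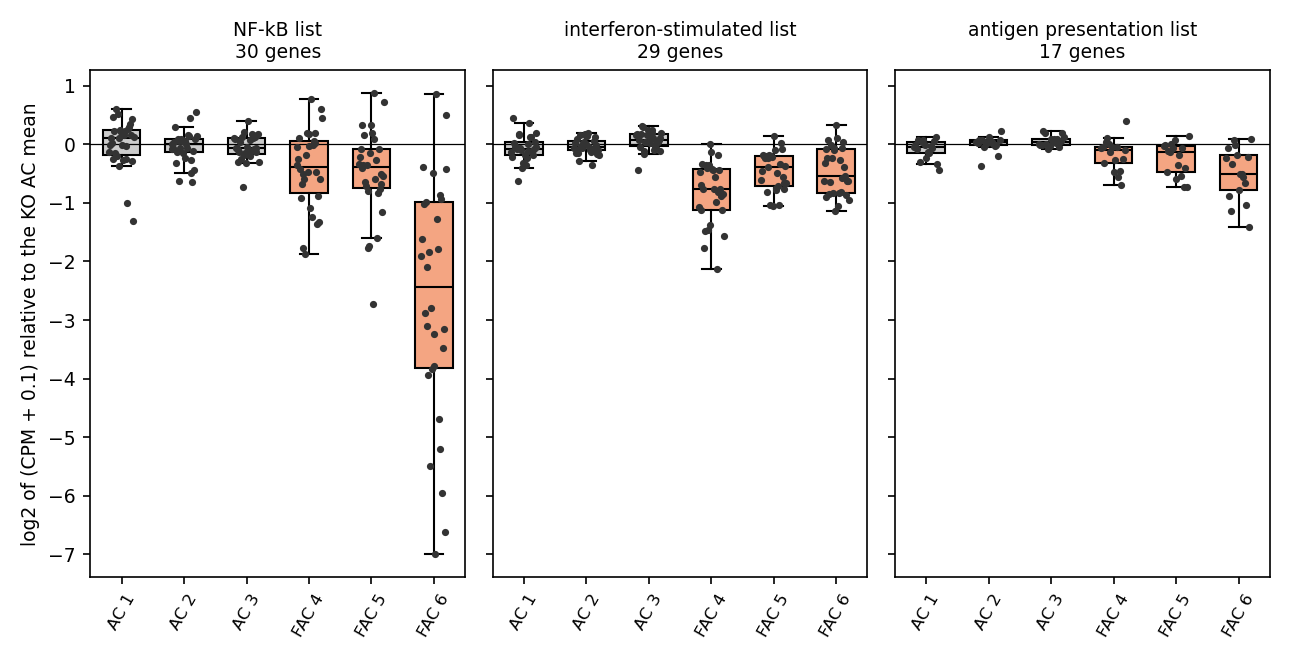
Levels of the members of 3 immune lists with a mean of at least 1 CPM in KO AC (30, 29 and 17 genes), as log2 of CPM + 0.1 relative to the mean of the AC libraries, for each KO library; boxes span the middle quartiles with the median as a line, and each point is 1 gene. The NF-kB list drops to a median of −2.44 in KO FAC 6, against −0.39 and −0.38 in the other FAC libraries, while the interferon list is lower in all 3 FAC libraries.

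Transcripts of several groups of liver genes were higher in the FAC libraries, against 15.0% higher and 14.6% lower among all genes. Liver function itself was not measured. Of 36 tested genes of xenobiotic cytochromes P450 and their regulators 28 rose and none fell (median 0.60, and 26 and 0 with the length trend removed). Cyp2f2, Cyp2c29 and Cyp2b10 rose by 1.15 ± 0.13, 1.10 ± 0.10 and 1.08 ± 0.11 on the log2 scale, and Cyp2c29 went from 272, 256 and 215 CPM to 531, 519 and 545 CPM. Plasma proteins of the hepatocyte counted 23 higher and 0 lower of 29 (median 0.39), and 23 and 1 with the length trend removed (median 0.29). Among those that rose were Serpina6, the carrier of corticosteroids (from 4.77 to 6.31 CPM to 13.7 to 14.4 CPM, 1.33 ± 0.14), Ahsg, the mineral-binding fetuin (0.85 ± 0.09), and Alb. Fga, a fibrinogen chain, rose from 780, 682 and 636 CPM to 1510, 1763 and 1918 CPM (1.31 ± 0.12), and Serpina3m, a protease inhibitor gene of the acute phase list, by 1.13 ± 0.10. Both groups of libraries stayed apart in each of these genes.

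Apolipoproteins and lipoprotein enzymes counted 17 higher and 2 lower of 27 (median 0.45), and 18 and 0 with the length trend removed (median 0.26). Apoc4, Lcat, which esterifies cholesterol in plasma, and Apoa1, the main protein of high-density lipoprotein, rose by 1.0 ± 0.16, 0.84 ± 0.10 and 0.83 ± 0.08, and Apoa1 went from 1161 to 1350 CPM to 2038 to 2296 CPM. Enzymes of the urea cycle and amino acid breakdown counted 19 higher and 5 lower of 41, and 17 and 4 with the length trend removed. Haao of tryptophan breakdown, Hal of histidine breakdown and Hpd of tyrosine breakdown rose by 1.37 ± 0.14, 1.27 ± 0.22 and 1.19 ± 0.11, while Kynu, also of tryptophan breakdown, fell from 13.6 to 25.8 CPM to 6.65 to 9.81 CPM. Phase II transferases counted 20 higher and 1 lower of 40, and 15 and 3 with the length trend removed. On the TPM scale they counted 8 and 5, with a median 0.27 above that of all genes. Ugt2b38, the largest riser there, lay below 1.2 CPM in every library, and its call was lost in 4 of 6 fits that left out 1 library.

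Of 26 tested transcription factors of hepatocytes 1 rose and 5 fell, Nr1h4 among them, against 15.0% and 14.6% of all genes (median −0.23). Without KO FAC 4 the count was 3 and 3 with a median of −0.04, and without KO AC 1 it was 1 and 2 with a median of −0.10. Nr5a2, a receptor that works with Fxr in bile acid control, fell from 29.3, 24.5 and 25.1 CPM to 14.5, 17.1 and 11.5 CPM (−0.87 ± 0.13), and Foxa1 was called lower (−0.39 ± 0.12), but not in 4 of 6 fits that left out 1 library. Creb3l3, an ER-bound factor of liver, was the 1 called higher (0.64 ± 0.22), and it kept this call only on omission of KO FAC 4. The list of Fxr and genes tied to it counted 10 higher of 18, and the 1 lower was Nr1h4 itself. With the length trend removed this list counted 9 and 1. It also holds Slc10a1, which Fxr signalling is known to lower. Abcb11, the pump that exports bile salts, rose from 2.52, 2.16 and 1.86 CPM to 4.15, 5.36 and 4.19 CPM (1.06 ± 0.20), and Slc10a1, the importer of bile salts, from 11.4, 9.46 and 9.77 CPM to 21.2, 18.4 and 22.1 CPM (1.01 ± 0.12). Among bile acid synthesis genes 5 rose and none fell of 18, and 3 rose and 2 fell on the TPM scale. The largest rise there was that of Akr1c6, a hydroxysteroid dehydrogenase (13.3, 11.5 and 8.84 CPM, then 36.8, 32.6 and 37.5 CPM, 1.67 ± 0.14).

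Lipid and energy genes were divided. Cholesterol synthesis counted 15 higher and 2 lower of 26, and 10 and 1 without KO FAC 6. On the TPM scale it counted 7 and 4, with a median 0.23 above that of all genes. Insig1, which senses sterols, stood at 79.5 to 94.3 CPM and 140 to 227 CPM (1.02 ± 0.14), and the synthase Fdps rose by 0.59 ± 0.07. Genes of PPARα and fatty acid oxidation counted 4 higher and 3 lower of 32 (2 and 10 on the TPM scale), shares near or below those of all genes. The hydroxylase gene Cyp4a10 rose from 24.4 to 28.2 CPM to 46.9 to 50.3 CPM, and Vnn1, which makes cysteamine, fell from 69.4 to 86.3 CPM to 23.2 to 32.0 CPM. Lysosome and autophagy genes counted 22 higher and 2 lower of 46, unchanged at 22 and 2 with the length trend removed, and 8 and 9 on the TPM scale. Neu1, a sialidase, and Ctsl, the protease cathepsin L, rose by 0.65 ± 0.06 and 0.58 ± 0.06. Cytosolic ribosomal proteins counted 46 higher and 1 lower of 83, and oxidative phosphorylation subunits 29 and 1 of 81, but their transcripts are short (median lengths 570 and 536 bases). With the length trend removed they counted 10 and 1, and 5 and 3, and on the TPM scale 11 and 2, and 5 and 6. Without KO AC 1, and with no length correction, the oxidative phosphorylation count was 57 and 0.

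Counts of cytoskeleton, matrix and growth control genes stand against 15.0% higher and 14.6% lower over all genes. The cytoskeletal list with targets of YAP and SRF counted 14 higher and 20 lower of 51, and 9 and 22 with the length trend removed. Ctgf, the connective tissue growth factor, fell from 50.1, 82.4 and 78.4 CPM to 32.6, 13.7 and 31.4 CPM (−1.44 ± 0.29), and Acta2, smooth muscle actin, stood at or below 0.756 CPM in every library. Collagens, laminins and integrins counted 1 higher and 9 lower of 37, and 3 and 7 with the length trend removed. Their transcripts are long (median 5438 bases). The growth factor gene Tgfb2 of this list fell from 17.4 to 19.3 CPM to 5.59 to 9.39 CPM. Genes of the cell cycle and replication counted 5 higher and 2 lower of 31 (median 0.04), with a share of rises near that of all genes. Targets of p53 counted 2 higher and 6 lower of 26. Pmaip1, the death protein NOXA, fell from 2.06, 2.82 and 3.55 CPM to 0.122, 0.262 and 0 CPM (−4.44 ± 0.50), and the death receptor gene Fas from 13.7 to 16.1 CPM to 3.78 to 9.22 CPM. The clock list counted 1 higher and 4 lower of 19, also with the length trend removed. In it Per2 fell by 0.90 ± 0.12 and Nr1d1, a repressor of the clock, rose by 0.61 ± 0.15.

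Markers of the labelled cell type were abundant. The 10 hepatocyte markers summed to 25400 to 27100 CPM with AC and to 33300 to 33800 CPM with FAC, and 9 of them rose. In bulk RNA, fewer cells of a type and less RNA per cell cannot be told apart. Markers of other liver cells were low but for a few genes. Macrophage markers (11 in the table) summed to 556 to 689 CPM with AC and 728 to 864 CPM with FAC, nearly all of it Cd68 (554, 687 and 650 CPM, then 863, 832 and 727 CPM, 0.36 ± 0.09). Of 4 tested macrophage markers 1 was called higher and 0 lower. Only 2 had a positive fold change, and their median log2 fold change over all 4 was −0.75. The defining macrophage marker Clec4f was at 0, and 4 of the 11 had at most 3 reads in any KO library. Endothelial markers summed to 61.2 to 66.5 and 52.0 to 65.7 CPM, with Clec4g at 0, and stellate markers to 6.42 to 7.62 and 4.63 to 6.81 CPM, with Hgf and Lum at 0. Lymphocyte and neutrophil markers reached at most 0.61 CPM in sum. Of 5 tested cholangiocyte markers 2 were called higher and none lower, and 3 had a positive fold change. The 7 in the table summed to 113 to 122 CPM with AC and to 169 to 184 CPM with FAC, with Krt19, a keratin, at 11.6, 11.1 and 9.42 CPM and at 17.0, 22.4 and 34.3 CPM (1.20 ± 0.22) and Spp1, osteopontin, at 46.1 to 61.0 and 78.7 to 85.0 CPM (0.66 ± 0.09). The part of other cells in the results was not tested.

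Whether the response of KO cells differed from that of WT cells was tested as the difference of the 2 effects, KO minus WT, in 1 model over the 4 groups. In WT cells 2117 genes (17.2%) changed with FAC, and 1172 genes changed in the same direction in both genotypes, which is 32.3% of the KO list and 55.4% of the WT list, while 34 changed in opposite directions. The difference passed the threshold for 387 genes (3.15%), 230 with a positive difference (1.87%) and 157 with a negative one (1.28%). Among iron genes no difference was called for Tfrc, Ftl1, Fth1 or Slc40a1, at −0.67 ± 0.23, 0.24 ± 0.11, 0.23 ± 0.13 and 0.26 ± 0.26 (adjusted p = 0.132, 0.26, 0.379 and 0.626). It was called for Hamp at 3.14 ± 0.54 (adjusted p = 0.0215), which fell by 4.36 ± 0.42 on the log2 scale in WT cells and by 1.22 ± 0.37 in KO cells, for Hmox1 at 1.09 ± 0.25 (adjusted p = 0.0418) and for Steap3 at 0.55 ± 0.10 (adjusted p = 0.0158). The difference in Hamp was not called on omission of WT AC 2, of WT AC 3 or of WT FAC 4, and that in Hmox1 was not called in 9 of 12 fits that left out 1 library. The count of 387 rests on single libraries as well, since it was 93 without WT AC 3 and 656 without KO FAC 4.

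Counts of differences in gene lists stand against 1.87% positive and 1.28% negative over all genes. The serine, glycine and one-carbon list had 8 positive and 0 negative of 26 tested. The ER list had 4 positive and 1 negative of 28, and the integrated stress response 3 positive and 2 negative of 23. The difference was 0.94 ± 0.10 for Phgdh (adjusted p = 0.000331), 0.90 ± 0.12 for Psat1 and 0.55 for Psph, the last not called in 7 of 12 fits that left out 1 library. Creld2 stood at 1.09 ± 0.11 (adjusted p = 0.000331) and Hsp90b1 at 0.50 ± 0.10, the latter not called in 4 of 12 such fits. Starting levels differed as well, since Phgdh averaged 71.5 CPM in WT AC and 26.3 CPM in KO AC, and Creld2 26.7 and 68.4 CPM. Sprr1a, a cornified envelope precursor gene, was 1020, 893 and 956 CPM with AC and 853, 1004 and 960 CPM with FAC in KO cells, whereas in WT cells it fell from a mean of 539 CPM to 113 CPM (difference 2.23 ± 0.15, adjusted p = 9.82e-06). Cyp26a1, which breaks down retinoic acid, averaged 0.681 and 0.980 CPM in KO cells and 2.43 and 0.0374 CPM in WT cells (6.29 ± 0.64). Loxl2, a matrix crosslinking enzyme gene, fell in both, less so in KO cells (1.40 ± 0.12). Myof, Fblim1 and Mat1a, the last the liver enzyme that makes S-adenosylmethionine, rose in KO cells and fell in WT cells. Their differences were 1.03 ± 0.12, 1.12 ± 0.13 and 1.20 ± 0.14.

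The negative differences with the smallest p-values included inducible heat shock genes. In KO cells Hspa1a stood at 3.90, 3.99 and 2.68 CPM with AC and at 5.61, 9.74 and 7.45 CPM with FAC (1.10 ± 0.20), and in WT cells its mean went from 1.89 to 46.2 CPM (difference −3.51 ± 0.28, adjusted p = 3.04e-05). Hspa1b, a close copy with an uncertain split of reads, stood at 13 to 18.2 and 15.3 to 18.8 CPM in KO cells, against 7.16 and 66.4 CPM in WT cells (−3.01 ± 0.21, adjusted p = 9.82e-06). Ddit3, the stress factor CHOP, rose in both genotypes, less in KO cells (0.68 ± 0.09 against 1.80 ± 0.09, difference −1.13 ± 0.13). Nabp1, which binds single-stranded DNA, fell in KO cells from 129, 136 and 140 CPM to 81.0, 79.2 and 82.3 CPM and rose in WT cells from 129 to 161 CPM (−1.06 ± 0.09). Vwa5a and Tsr1, the latter needed for ribosome assembly, fell in KO cells by 0.93 ± 0.06 and 0.82 ± 0.08 on the log2 scale and did not pass the test in WT cells (differences −0.79 ± 0.09 and −0.79 ± 0.12). Grhl2, an epithelial transcription factor gene, was called lower in KO cells, from 2.81 to 3.99 CPM to 1.64 to 2.38 CPM, a call that ended in 4 of 6 fits that left out 1 library, and rose in WT cells (−2.28 ± 0.32). Spin4 stood at 12.8 to 17.0 and 13.5 to 16.0 CPM in KO cells and rose in WT cells (−1.13 ± 0.17). Of the genes that fell in KO cells, the difference was also called for Gclc (−0.66 ± 0.14), Igtp (−0.67 ± 0.16), Psmb8 (−0.50), Vnn1 (−0.70 ± 0.15) and Pmaip1 (−3.13 ± 0.66). These 5 calls ended in 4 to 10 of the 12 fits that left out 1 library, 10 for Igtp and Psmb8 and 8 for Gclc.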

How the data were processed

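RNA was extracted with TRIzol and sequenced on a BGISEQ-500, per the labels' protocols. Reads were quantified with RSEM against mm10, given also as GRCm38.p6, per the submitters' processing notes. The RSEM version, aligner, annotation and use of strand are not given in the sources used here, so antisense and overlapping genes cannot be separated. The authors deposited 3 values for each gene in each library. The deposited estimated counts are not normalized. The deposited FPKM values are divided by library size and by gene length. The deposited TPM values sum to the same total in each library. Of the estimated counts 92.1% were whole numbers, and they were rounded.

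The table held 16728 genes, of which 16629 matched RefSeq by identifier and 28 had symbols that a spreadsheet had altered, with 22 restored. Counts were tested with edgeR 4.0.16 in R 4.3.3: filterByExpr with a minimum count of 10 kept 12275 genes and removed 4453, TMM factors of KO libraries were 0.92 to 1.01, and a robust quasi-likelihood model with trended dispersion was fitted to all 4 groups (biological coefficient of variation 10.8%). Contrasts were FAC minus AC in KO, the same in WT, and their difference, each with Benjamini-Hochberg adjustment over the 12275 genes. The SE is the absolute log2 fold change divided by the square root of the F statistic. The script was tested on simulated data.

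The members and gene lists were chosen with earlier results of these data known. Named genes are 10 fixed genes of Fxr and iron biology, the 12 largest log2 rises and falls among called genes with a mean FPKM of at least 5 and no overlap, the 8 largest changes in CPM each way, up to 4 called members of each list with at least 3 called, and the 8 smallest p-values each way for the difference. Other genes were named for their role in a list or after their values were seen, and some genes are not reported here. Transcript lengths were those implied by the estimated counts and FPKM, and the length trend was a lowess curve (span 0.3) of each library, used as an offset. Alternatives were median-of-ratios scaling, DESeq2 1.42.0, other filters, limma 3.58.1 on log2(FPKM + 1), log2(FPKM + 0.1) and log2(TPM + 1), a 2-fold threshold, omitted libraries, the KO libraries alone and a replicate block. Figures were drawn with matplotlib 3.10.9.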

Additional observations from a re-analysis of the deposited data

Results flagged for a closer look

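Each result here was flagged because the effect of FAC differed between KO and WT hepatocytes at an adjusted p under 0.05 in the test of the difference itself (edgeR, KO minus WT, log2). In iron, haem and mitochondrial genes the difference was 3.14 for Hamp, 1.09 for Hmox1, 0.55 for Steap3, 1.0 for Fdxr and 1.53 for Star. Among genes with the largest rises in KO cells it was 1.12 for Lce1g, 2.26 for Cryab, 0.93 for Emp1 and 1.10 for Smyd4, and for the abundant transcripts Tgm2 and Gapdh it was 0.63 and 0.35.

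Stress and serine genes gave 0.50 for Asns, −1.13 for Ddit3, 0.75 for Pck2, 0.94 for Phgdh, 0.90 for Psat1 and 0.55 for Psph. Chaperone genes gave 1.09 for Creld2, 0.50 for Hsp90b1, −0.43 for Hyou1, −3.51 for Hspa1a and −3.01 for Hspa1b. In antioxidant and immune genes the values were −0.66 for Gclc, 0.53 for Prdx6, −0.67 for Igtp and −0.50 for Psmb8.

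Liver genes gave 0.98 for Fga, 0.84 for Cyp4a10, −0.70 for Vnn1, 1.11 for Abcb11 and 1.14 for Slc10a1. Pmaip1 gave −3.13 and Spp1 0.76. The smallest p-values belonged to Sprr1a (2.23), Loxl2 (1.40), Cyp26a1 (6.29), Myof (1.03), Mat1a (1.2) and Fblim1 (1.12) in the positive direction and to Nabp1 (−1.06), Vwa5a (−0.79), Grhl2 (−2.28), Tsr1 (−0.79) and Spin4 (−1.13) in the negative one, besides those of Creld2, Phgdh, Hspa1a, Hspa1b and Ddit3. Of these 44 differences 25 passed the threshold whichever of the 12 libraries was left out, and 19 did not in at least 1 such fit. Why the effects differ was not tested.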

How the results depend on the processing

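For FAC in KO cells the count of 3633 called genes stayed within 1.5 times under the other scaling, DESeq2, other filters, limma on FPKM or TPM, and removal of the length trend (3026). A 2-fold threshold left 46 genes, 71.7% of them higher, and the KO libraries alone 2198. With 1 library left out the count ran from 2365 (without KO AC 3) to 4088 (without KO AC 1). Against 50.6% higher, the share was 33.9% on log2(FPKM + 1), 33.2% on log2(FPKM + 0.1) and 18.5% on log2(TPM + 1).

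For the difference, 387 genes became 678 with DESeq2, 584 on log2(FPKM + 1), 5 at a 2-fold threshold and 1932 without KO AC 1 and KO FAC 4. With 1 of 12 libraries left out the count ran from 93 (without WT AC 3) to 656 (without KO FAC 4), over 1.5 times from 387 for all but WT AC 1 and KO FAC 6, and the positive share from 57.2% to 72.0%. That share, 59.4% in the full data, was 47.9% and 46.4% on FPKM with a pseudocount of 1 and of 0.1, and 43.9% on TPM. A replicate block over the numbers shared by WT and KO libraries called 84 genes, 75.0% positive. The numbers are not given as pairs, and correlations of same-numbered libraries ran from −0.142 to 0.208, so the samples share only a number. AC and FAC libraries of KO cells share no number, and the effect in KO cells has no blocked fit.

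Of the 152 named genes called in KO cells, 129 were called whichever KO library was left out, and no named gene changed direction with a call under any alternative run. The 2-fold threshold ended the call of 129, the fit of KO libraries alone that of 22, TPM that of 17 and removal of the length trend that of 15. The cause was not tested. Depth, 16464494 to 18335700 reads, limits genes near 1 CPM.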
